A study of Mus musculus with 34 samples.

Results

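The iron storage and heme genes described here were Fth1, Ftl1, Hmox1, Slc40a1, Slc11a1, Tfrc and Bach1, 7 of the 21728 protein-coding genes on chromosomes 1 to 19 and X. Every ChIP-seq peak whose midpoint lay in the gene body or within 20 kb on either side (GENCODE M21, mm10) was taken as a member. Of the 596383 peaks in 30 lists, 604 lay in these windows, and peaks that overlapped by at least 1 bp formed 77 loci. At 60 of the 77 loci the nearest protein-coding gene start was that of the member gene, and only the Bach1 window held no other protein-coding gene.

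The lists came from thioglycollate elicited macrophages (TGEMs), inflammatory macrophages flushed from the mouse peritoneum 3 days after thioglycollate injection. The mice without a knockout were male and 8 weeks old. Cells were given vehicle (Veh, PBS) or 100 ng/mL Kdo2 lipid A (KLA), an agonist of the TLR4 receptor, for 1 h. In the strain labelled C57Bl/6EiJ (C57 for short) the 6 AP-1 monomers ATF3, Jun, JunD, Fos, FosL2 and JunB were profiled with Veh and KLA, as were PU.1 and CEBPα, and PPARγ with Veh. In Balb/cJ (BALB for short) the same monomers except FosL2 were profiled with both treatments. In TGEMs titled C57Bl6-PPARgKO (PPARgKO for short) ATF3, Jun and JunD were profiled with Veh only. The paper gives no sex or age for the knockout mice. How PPARγ was removed is not given in the sources used here, and no PPARγ list of the knockout was analysed, so the knockout could not be checked. The lists hold no expression values, so macrophage markers could not be checked either.

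AP-1 is a dimer of basic leucine zipper proteins that binds the sequence TGACTCA (the TRE). PU.1 and CEBPα are the factors that define macrophage enhancers, and PPARγ is a lipid-sensing nuclear receptor. Ferritin, the iron storage shell, is built from the heavy chain of Fth1 and the light chain of Ftl1. Hmox1 breaks heme down and releases its iron, Slc40a1 (ferroportin) exports iron from the cell, Tfrc takes up transferrin-bound iron and Slc11a1 (Nramp1) moves metal ions out of the phagosome. Bach1 is a repressor that heme inactivates. It competes with NRF2 for the antioxidant response element (ARE), TGACNNNGC, which can contain a TRE and through which Hmox1 and both ferritin genes are known to be controlled.

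Each condition had 1 list, in which the replicate experiments were already combined. No test between conditions could be made, and the 95% Wilson intervals given here cover counting error only. Peaks of a window also share a region and are not independent. List lengths ran from 0 (BALB Fos with Veh) to 41573 peaks (C57 PU.1 with Veh), and the BALB JunB list with Veh held 9. The median count of a list ran from 18 to 277, so counts were not compared between lists. A peak is described by its count and its percentile, the position of that count within its own list, with 100 for the strongest peak.

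AP-1 binding was dense at Fth1, Slc11a1, Ftl1, Bach1 and Hmox1, sparse at Tfrc and limited to 1 peak at Slc40a1. Counted over all 30 lists, those of PU.1, CEBPα and PPARγ included, there were 159 peaks in the Slc11a1 window and 134 at Bach1. Fth1 had 127, Hmox1 84, Ftl1 68, Tfrc 31 and Slc40a1 1. Per kb of window, the AP-1 loci of C57 placed Fth1 at the 99.5th percentile of all protein-coding genes, Slc11a1 at 97.3, Ftl1 at 96.6, Bach1 at 96.1 and Hmox1 at 92.7. Slc40a1 lay at 45 and Tfrc at 43.4, close to the middle of all genes. High density was not limited to AP-1. PU.1 with KLA was at 99.9 for Slc11a1 and 99.4 for Fth1, PPARγ at 99.7 for Slc11a1 and CEBPα with Veh at 99.4 for Hmox1. PU.1 with Veh was at 72.4 for Ftl1 and 86.4 for Tfrc. All 7 genes had at least 1 AP-1 locus, against 64.2% of protein-coding genes, and Tfrc and Slc40a1 had 1 each.

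**Figure D1:**
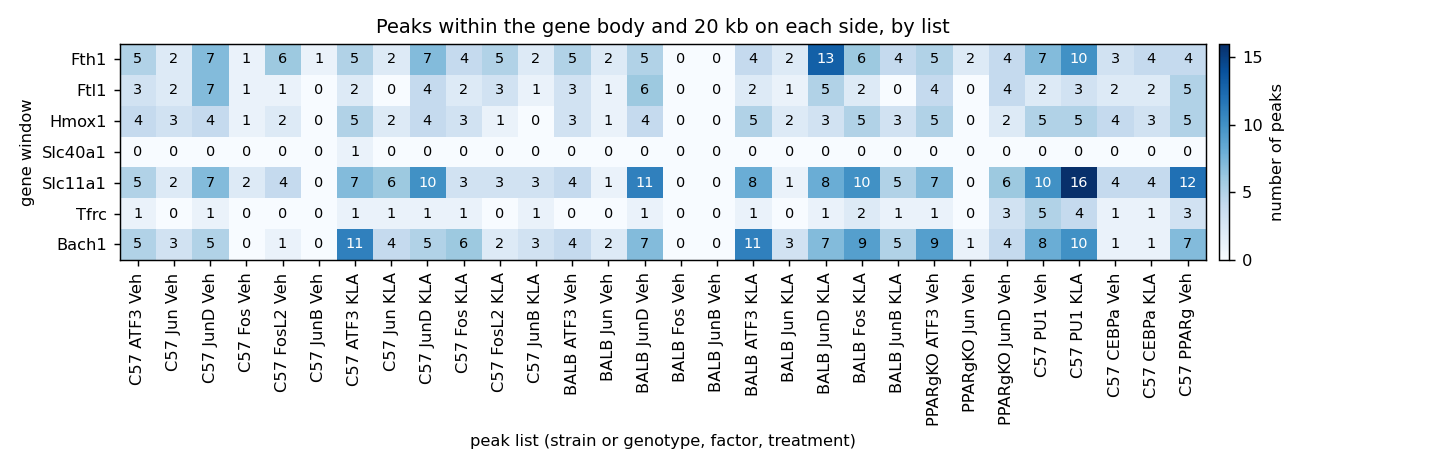
Number of peaks in each gene window (rows) in each of the 30 lists (columns, by strain or genotype, factor and treatment). Slc11a1, Bach1 and Fth1 have the darkest rows, with up to 16 peaks in a list, and the row of Slc40a1 is 0 in every list but ATF3 with KLA in C57.

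The ferritin heavy chain gene Fth1 (chr19:9980598-9985098, + strand) had no peak within 1 kb of its outermost annotated start in any of the 30 lists. Starts of single transcripts were not examined, so this does not show an unbound promoter. A locus at +2.2 kb, in an untranslated part of an Fth1 exon, had a peak in 13 lists. The most widely bound Fth1 locus was intergenic, -5.4 kb from the start, with a peak in 26 lists and in 10 of the 12 C57 AP-1 lists. With Veh in C57, ATF3 had a count of 146 (percentile 91.8), JunD 124 (94.9), Jun 38 (77.1), FosL2 29 (68.8) and JunB 22 (73.7). That JunB peak was the only peak of the JunB list with Veh in any member window. With KLA, ATF3 was at percentile 85.2, JunD at 86.0, Jun at 85.1, Fos at 91.0 and JunB at 80.1, and FosL2 had no peak. PU.1 (87.3 with Veh and 93.7 with KLA) and PPARγ (92.9) also ranked high there. The sequence around the strongest AP-1 peak, on the + strand of GRCm38 (the same assembly as mm10), is shown because it held no TRE, CRE or ARE although so many AP-1 lists had a peak. Its capitals would mark such words, and it held the PU.1 word AGGAAGT 2 times.

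Fth1 -5.4 kb (chr19:9975064-9975263): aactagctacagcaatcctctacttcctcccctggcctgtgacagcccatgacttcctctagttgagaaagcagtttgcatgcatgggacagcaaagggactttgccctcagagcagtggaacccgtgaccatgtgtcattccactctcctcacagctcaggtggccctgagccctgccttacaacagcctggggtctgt

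Closer to the gene, the Fth1 locus at -2.7 kb was absent from every Veh list and present in 11 KLA lists. In C57, CEBPα had its strongest member peak of the KLA list there (223, percentile 97.4), beside JunD at 497 (83.4), ATF3 at 104 (68.3), Jun at 38 (67.0), Fos at 58 (59.0), JunB at 34 (50.4) and FosL2 at 45 (44.2). The neighbouring locus at -2.0 kb was bound with both treatments. There JunD was at percentile 77.8 with Veh and 75.9 with KLA, PU.1 at 87.9 and 90.5, and PPARγ at 85.5. Farther on, at +2.2 kb in an untranslated part of an Fth1 exon and at +5.3 kb in an intron of the neighbouring gene Best1, the FosL2 list with Veh had peaks of 57 (rank 59 of 5329) and 65 (rank 19). These were among the strongest FosL2 peaks with Veh, and Jun had no peak at either locus.

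At the ferritin light chain gene Ftl1 (chr7:45457944-45459884, - strand), the C57 peaks of ATF3 and Jun were at percentile 51.3 or less, while JunD with Veh reached 89.3. The locus at the gene start (-0.2 kb) held Jun (24, percentile 45.3), JunD (53, 54.4) and Fos (18, 28.6) with Veh in C57, and of these monomers only Fos (40, 32.9) had a peak there with KLA. The strongest peaks of the window lay past the 3′ end of the gene at +2.6 kb. PPARγ had a count of 314 (percentile 99.3) there, PU.1 702 with Veh (92.1) and 235 with KLA (97.1), and JunD 99 with Veh (89.3) and 271 with KLA (48.5). Jun had no peak at +2.6 kb in any list. A further locus at -1.1 kb was bound by ATF3 (35 and percentile 16.4 with Veh, 76 and 51.3 with KLA) and JunD (24.6 and 30.3), and by Fos, FosL2 and JunB with KLA at percentiles of 26.2 or less. Both sequences are shown, since an ARE was in each and only the -1.1 kb locus held a TRE and a CRE (capitals mark TRE, CRE and ARE matches on either strand, and the lines are written on the + strand).

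Ftl1 +2.6 kb (chr7:45457210-45457409): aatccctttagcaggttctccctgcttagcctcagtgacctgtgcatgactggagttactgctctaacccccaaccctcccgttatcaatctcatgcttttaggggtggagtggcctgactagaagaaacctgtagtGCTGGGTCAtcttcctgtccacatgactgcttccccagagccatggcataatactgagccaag
Ftl1 -1.1 kb (chr7:45460904-45461103): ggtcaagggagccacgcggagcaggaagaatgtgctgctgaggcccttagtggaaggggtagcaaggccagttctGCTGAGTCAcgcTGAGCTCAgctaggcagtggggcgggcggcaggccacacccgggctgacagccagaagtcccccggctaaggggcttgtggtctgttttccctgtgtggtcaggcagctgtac

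Hmox1 (chr8:75093621-75100589, + strand) had 4 loci with C57 AP-1 peaks at and before its start, and the factors that ranked high differed between them. The -3.9 kb locus was the strongest for ATF3, with a count of 206 with Veh (percentile 97.6) and 148 with KLA (83.0). JunD was at 79.2 and 75 there, PU.1 at 88.8 and 85.4, and PPARγ at 98.9 with a count of 271. Jun had a peak there with KLA (36, percentile 63.0) and none with Veh. The -9.7 kb locus held ATF3 (120 with Veh, percentile 86.6, and 98 with KLA, 65.3), JunD (122, 94.5, and 342, 63.5) and Jun (26, 51.6, and 28, 42.9), with CEBPα at 88.3 and 74.9. PPARγ was at 89.7 there, and PU.1 had no peak. The -7.4 kb locus was the opposite. PU.1 had counts of 1017 with Veh (percentile 98.9) and 298 with KLA (99.2), and the C57 AP-1 peaks there were at percentile 52.9 or less. At the gene start (-0.1 kb) CEBPα led, at 93.7 with Veh and 94.6 with KLA, and ATF3 was at 52.3 and 67.8. JunB had no peak in the Hmox1 window of C57 with either treatment.

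The sequences of the -9.7 kb and -3.9 kb loci are shown for their AREs. The -9.7 kb locus held 3 AREs, each with a TRE inside it, and the -3.9 kb locus held 2 AREs, 1 of them with a TRE. Fth1 -2.0 kb also held 2 AREs and a TRE.

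Hmox1 -9.7 kb (chr8:75083862-75084061): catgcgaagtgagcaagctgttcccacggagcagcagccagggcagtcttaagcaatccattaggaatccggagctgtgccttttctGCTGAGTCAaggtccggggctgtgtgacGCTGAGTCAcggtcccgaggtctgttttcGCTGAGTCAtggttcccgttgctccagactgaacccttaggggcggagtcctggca
Hmox1 -3.9 kb (chr8:75089596-75089795): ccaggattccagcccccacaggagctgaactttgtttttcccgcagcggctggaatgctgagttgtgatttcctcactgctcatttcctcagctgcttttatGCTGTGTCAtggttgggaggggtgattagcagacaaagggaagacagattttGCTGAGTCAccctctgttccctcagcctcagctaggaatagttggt

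**Figure D2:**
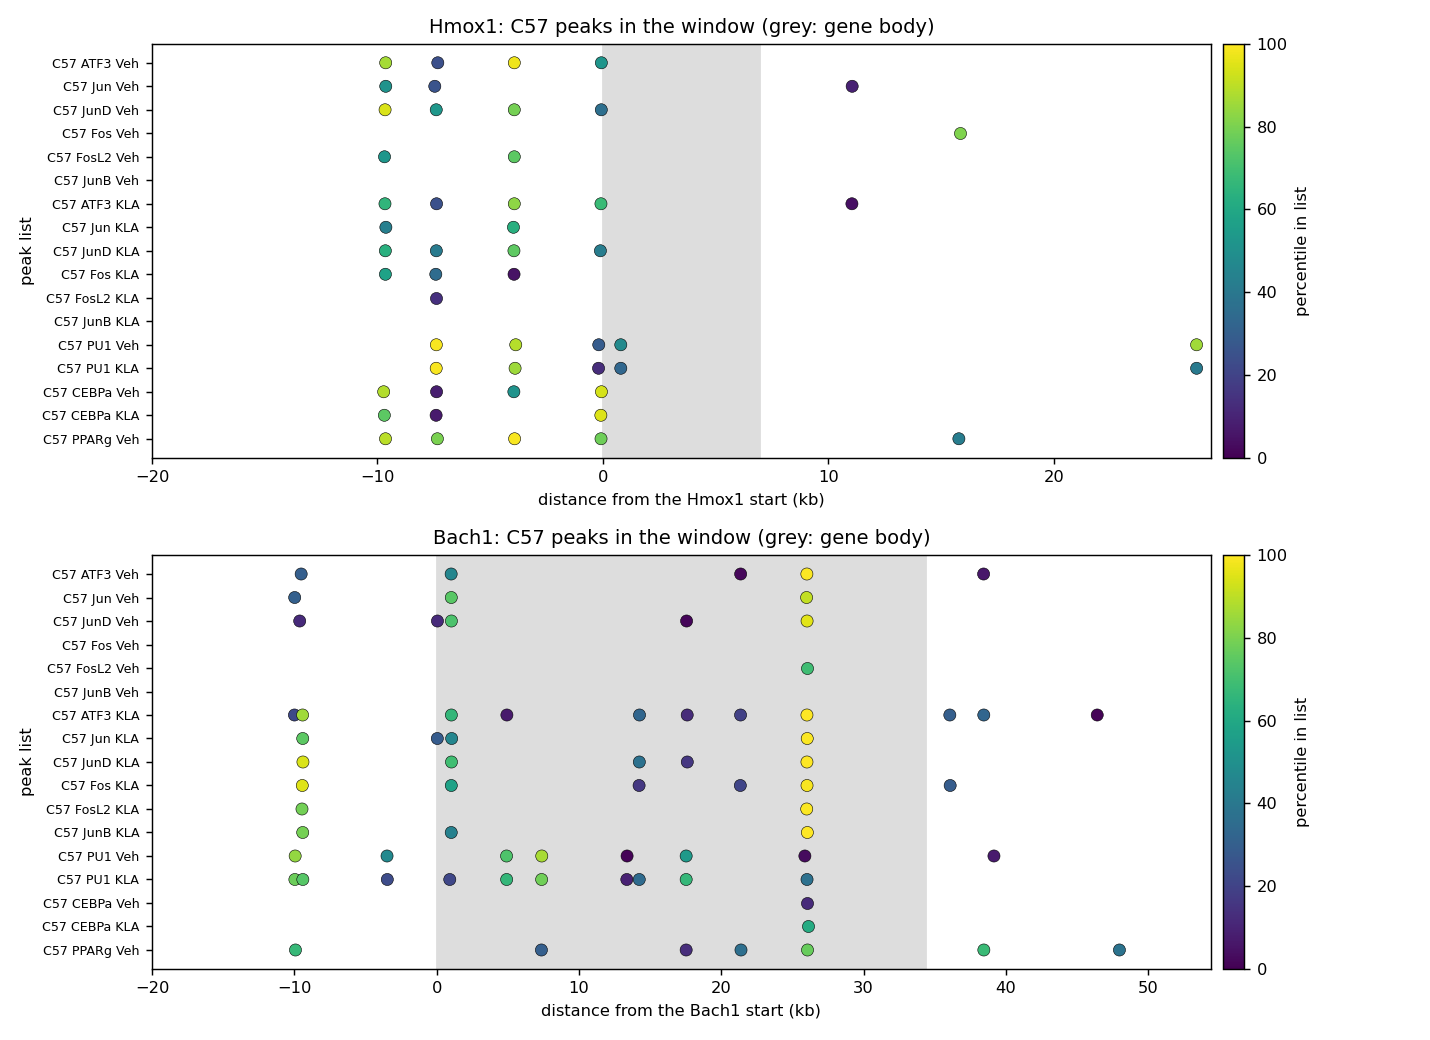
Peaks of the 17 C57 lists (rows) by distance from the gene start in kb, for Hmox1 and Bach1; each point is a peak, its colour the percentile of its count within its list, and the grey band the gene body. At Hmox1 the columns of points at -9.7, -7.4 and -3.9 kb differ in whether AP-1, PU.1 or both rank high, and at Bach1 the column at +26 kb is at 90.8 or more in every AP-1 list with a peak except FosL2 with Veh (68.8), and low for PU.1.

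The iron exporter gene Slc40a1 (chr1:45908068-45926523, - strand) had a single peak in 30 lists, for ATF3 with KLA in C57, at -11.5 kb with a count of 37 and a percentile of 5.45. No list of PU.1, CEBPα or PPARγ had a peak in its window. The sequence is shown because it held a TRE all the same.

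Slc40a1 -11.5 kb (chr1:45937901-45938100): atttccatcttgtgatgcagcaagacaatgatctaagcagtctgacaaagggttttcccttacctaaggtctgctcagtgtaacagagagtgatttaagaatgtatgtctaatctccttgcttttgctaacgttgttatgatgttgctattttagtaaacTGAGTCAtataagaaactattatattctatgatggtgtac

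The phagosomal metal transporter gene Slc11a1 (chr1:74375195-74386062, + strand) was bound at its start by nearly every factor. The locus there had a peak in 25 lists. Of the 12 C57 AP-1 lists it was in 11, more than any other of the 77 loci. With Veh, ATF3 had a count of 128 (percentile 88.4), JunD 96 (88.2), Jun 32 (66.6), FosL2 34 (81.6) and Fos 16 (15.6). With KLA, ATF3 was at percentile 93.5, JunD at 97.4, Jun at 89.9, FosL2 at 92.9, Fos at 90.8 and JunB at 92.8, where JunB had no peak with Veh. PPARγ was at 98.1, PU.1 at 85.5 and 91.6, and CEBPα at 86.9 and 88.3. The central 200 bp held no TRE, CRE or ARE and 1 PPAR half-site, AGGTCA.

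A locus in the gene body of Slc11a1, at +6.4 kb in an intron, ranked higher with KLA. ATF3 was at 53.4 with Veh and 92.4 with KLA, JunD at 75.7 and 97.2, Fos at 69.3 and 98.2 and FosL2 at 61.5 and 87.2. Jun (66, percentile 93.3) and JunB (76, 92.4) had peaks with KLA only, and PU.1 was at 36.1 and 87.7. PPARγ with Veh was at 98.5. Upstream, at -6.4 kb, within a coding exon of the neighbouring gene Catip, ATF3 was at percentile 80.1 with Veh and 93.0 with KLA, and Jun at 25.8 and 63.0. At +22.3 kb, near Ctdsp1, PPARγ was at 96.8 and the C57 AP-1 peaks were at 61.4 or less. This locus spans neighbouring summits. The C57 Veh peaks of ATF3, JunD and FosL2 did not overlap the PPARγ peak. They overlapped a PU.1 peak with Veh at 80.3, so the PPARγ and AP-1 ranks with Veh are not those of 1 site.

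The transferrin receptor gene Tfrc (chr16:32608920-32632794, + strand) had no C57 AP-1 peak within 1 kb of its start, where PU.1 had peaks at 54.9 with Veh and 57.5 with KLA. PPARγ was at 40.1 there. AP-1 peaks were called at the start outside C57, for JunD with Veh in BALB (40, percentile 46.4) and PPARgKO (29, 38.3). Fos with KLA in BALB also had one (29, 5.98). Its only AP-1 locus in C57 was at -13.5 kb. ATF3 had a count of 42 there with Veh (percentile 29.9) and 80 with KLA (54.4), and JunD 49 (48.2) and 313 (58.0). Jun (40, 70.4), Fos (51, 50.2) and JunB (26, 29.5) had peaks with KLA only. PPARγ (208, 97.8) and CEBPα (91.6 with Veh and 92.6 with KLA) ranked higher there than any C57 monomer.

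The repressor gene Bach1 (chr16:87698945-87733346, + strand) carried the strongest AP-1 peak of all 7 windows, in an intron +26 kb from its start. With Veh in C57, ATF3 had a count of 256 (percentile 99.2, rank 176 of 23160), JunD 129 (95.7), Jun 52 (90.8) and FosL2 29 (68.8). With KLA, ATF3 had 442 (rank 11 of 36745), JunD 1018 (rank 26 of 31640), JunB 154 (rank 14 of 13375), FosL2 142 (rank 44 of 10619), Jun 101 (rank 110 of 17480) and Fos 203 (rank 199 of 24365). All 6 monomers were thus at or above percentile 99 with KLA, as at 18 of the 49596 AP-1 loci of C57. PU.1 was weak at this locus, at percentile 3.02 with Veh and 37.1 with KLA, CEBPα was at 12 and 61.1, and PPARγ was at 76.8. Fos and JunB had no Veh peak anywhere in the Bach1 window.

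A second Bach1 locus, intergenic at -9.4 kb, had weak Veh peaks of ATF3 (42, percentile 29.9), Jun (20, 30.1) and JunD (33, 11.8). With KLA, ATF3 had 161 (85.9), Jun 43 (74.9), JunD 674 (94.2), Fos 142 (95), FosL2 71 (78.6) and JunB 54 (79.2). The locus spans neighbouring summits, and the Jun peaks with Veh and KLA did not overlap each other. At +1.0 kb, in the intron after the start, Jun was at 74.0 with Veh and 45.9 with KLA, and JunD at 71.8 and 69.4. The sequences of the +26 kb and -9.4 kb loci are shown because each held 1 TRE and no ARE.

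Bach1 +26 kb (chr16:87724870-87725069): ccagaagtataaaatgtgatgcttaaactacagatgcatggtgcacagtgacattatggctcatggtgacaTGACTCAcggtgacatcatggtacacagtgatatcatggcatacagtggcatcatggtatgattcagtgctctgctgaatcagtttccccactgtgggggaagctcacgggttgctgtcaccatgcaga
Bach1 -9.4 kb (chr16:87689408-87689607): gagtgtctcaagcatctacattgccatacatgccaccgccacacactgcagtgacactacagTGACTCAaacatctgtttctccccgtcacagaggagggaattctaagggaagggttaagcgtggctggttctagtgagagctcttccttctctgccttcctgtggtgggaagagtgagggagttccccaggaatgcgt

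**Figure D3:**
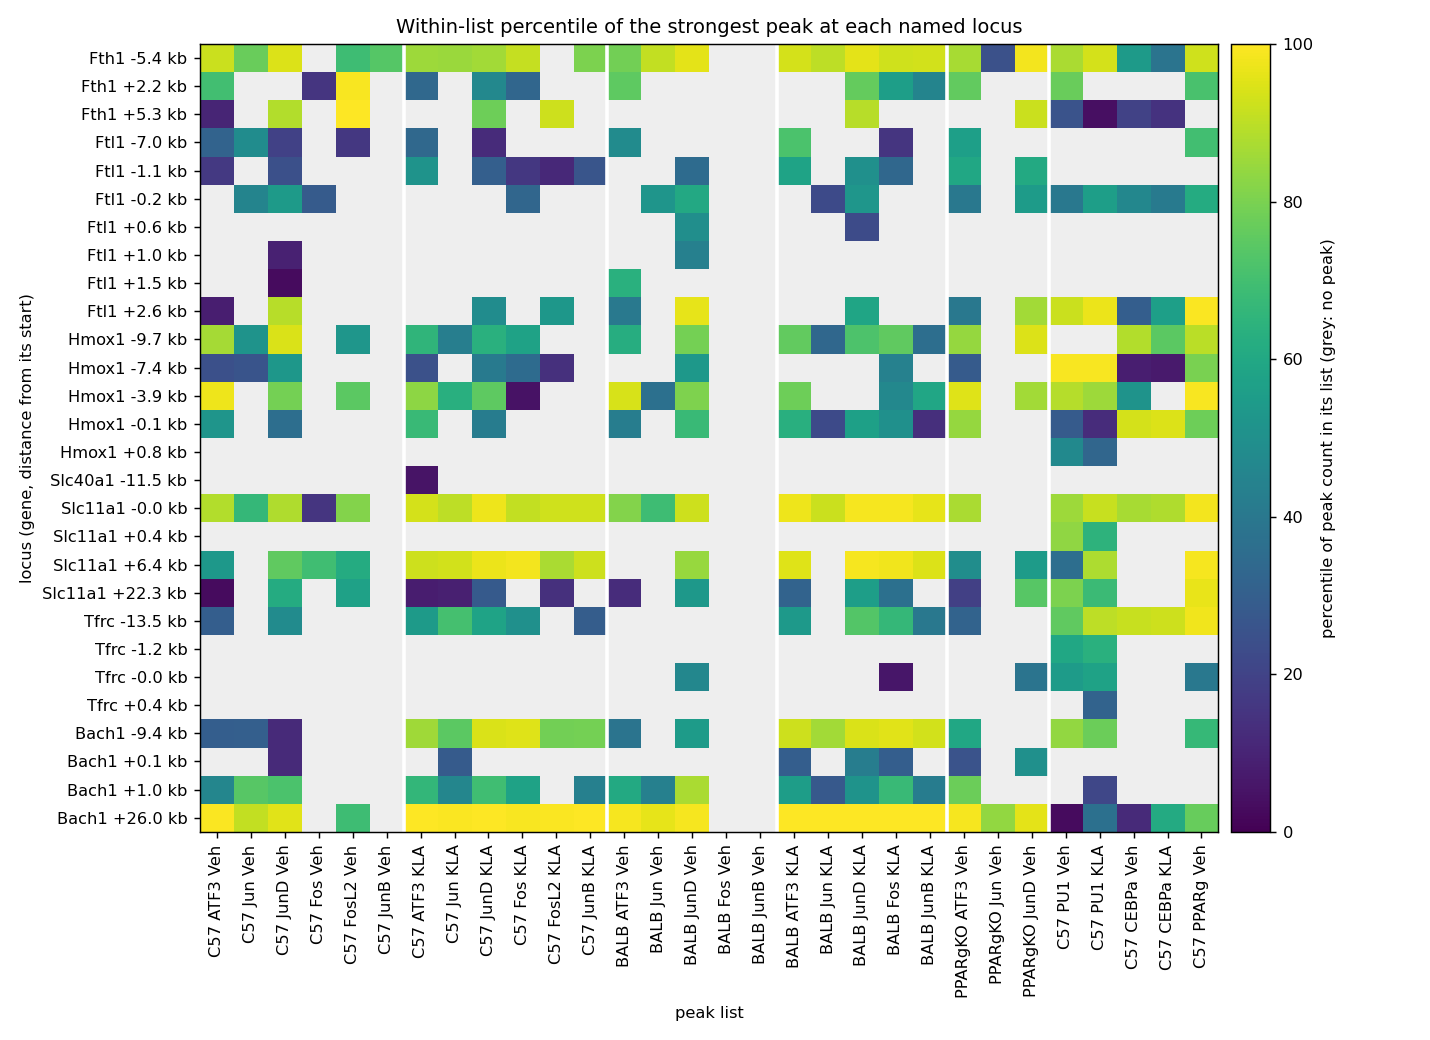
Percentile, within its own list, of the strongest peak at the 28 loci chosen by position, rank or number of lists (rows, gene and distance from its start) in each of the 30 lists (columns); grey means no peak. The rows Bach1 +26 kb, Slc11a1 -0.0 kb and Fth1 -5.4 kb are filled across most AP-1 lists.

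The comparison of KLA with Veh asked which of these peaks were kept, new or shifted within 1 h. Of the C57 Veh peaks in the windows, 19 of 23 ATF3 peaks (82.6%, interval 62.9 to 93.0) overlapped a KLA peak, against 81.1% of all ATF3 peaks. For Jun this was 6 of 12 (50.0%, 25.4 to 74.6) against 57.8%, and for JunD 25 of 31 (80.6%, 63.7 to 90.8) against 77.8%. Each share of all peaks lay inside the interval of the members. All Veh peaks of ATF3 and JunD at Hmox1 (4 each) were kept, and neither of the 2 Jun peaks at Ftl1 was.

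In the windows 7 of 31 JunD peaks with KLA had no Veh peak (22.6%, 11.4 to 39.8), against 51.6% of all JunD peaks. The gap depended on the settings. With both lists set to the length of the shorter one the share was 4 of 21 (19%, 7.67 to 40) against 39.4%, which lay inside the interval. With an IDR score of at least 830 it was 37% (upper bound 55.8) against 56.3%, with peak centres within 100 bp 35.5% (21.1 to 53.1) against 53.3%, and with a reciprocal overlap of 50% 35.5% (same bounds) against 53%. For ATF3 13 of 32 were new (40.6%, 25.5 to 57.7) against 48.8%, and at equal length 1 of 15 (6.67%, 1.19 to 29.8) against 33.7%. For Jun the values were 8 of 15 (53.3%, 30.1 to 75.2) against 48.6%. For Fos 15 of 19 (78.9%, 56.7 to 91.5) were new against 95.5%, for FosL2 8 of 14 (57.1%, 32.6 to 78.6) against 75.3% (at equal length 2 of 6, 33.3%, against 62.1%), and for JunB 9 of 10 (90%, 59.6 to 98.2) against 98.2%. The Veh lists of Fos and JunB held 1804 and 463 peaks, and with equal lengths 2 of 3 Fos peaks (66.7%) were new against 81.0%. With an IDR score of at least 830, 13 of 13 Fos peaks were new (100%) against 98.1%. With peak centres within 100 bp or a reciprocal overlap of 50% the Fos share stayed at 78.9%, against 95.9% and 95.8%. The new peaks in the upper 50% of their list were those at Fth1 -2.7 kb (ATF3, Jun, JunD, Fos and JunB), Bach1 -9.4 kb (Jun, Fos, FosL2 and JunB), Tfrc -13.5 kb (Jun and Fos), Slc11a1 +6.4 kb (Jun and JunB), Slc11a1 at the start (JunB), Bach1 +26 kb (Fos and JunB), Bach1 +1.0 kb (Fos), Hmox1 -3.9 kb (Jun), Hmox1 -9.7 kb (Fos), Fth1 -5.4 kb and -2.0 kb (Fos) and Ftl1 +2.6 kb (FosL2).

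Among kept peaks, a difference of at least 25 percentile points was counted. For ATF3, 4 of 19 lay that much higher with KLA (21.2% of all kept ATF3 peaks did) and 2 lower (7.04%). The higher ones were at Bach1 -9.4 kb and +38.5 kb (6.5 to 32.6), Slc11a1 +6.4 kb and Ftl1 -1.1 kb, and the lower ones at Fth1 +2.2 kb (69.8 to 33.8) and Slc11a1 +16.4 kb (76.7 to 42.3). For Jun, 1 of 6 lay higher (13.5% of all), at Slc11a1 -6.4 kb, and 1 lower (17.4%), at Bach1 +1.0 kb. For JunD, 3 of 25 lay higher (19.6%), 1 at Bach1 -9.4 kb and 2 at Slc11a1 -6.4 kb that overlapped the same KLA peak. A further 5 JunD peaks lay lower (9.66% of all), 2 at Ftl1 +2.6 kb and 1 each at Hmox1 -9.7 kb (94.5 to 63.5), Fth1 +5.3 kb and Slc11a1 +22.3 kb. These counts depended on list length, since the Veh lists are shorter than the KLA lists (19653 against 31640 peaks for JunD). At equal length, 2 of 14 ATF3 peaks lay higher (11.9% of all) and 3 lower (17.8%), and 3 of 18 JunD peaks lay higher (13.0%) and 5 lower (22.6%). More peaks of both whole lists then lay lower than higher, the reverse of the full lists, so no balance of higher and lower peaks is read from the members.

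**Figure D4:**
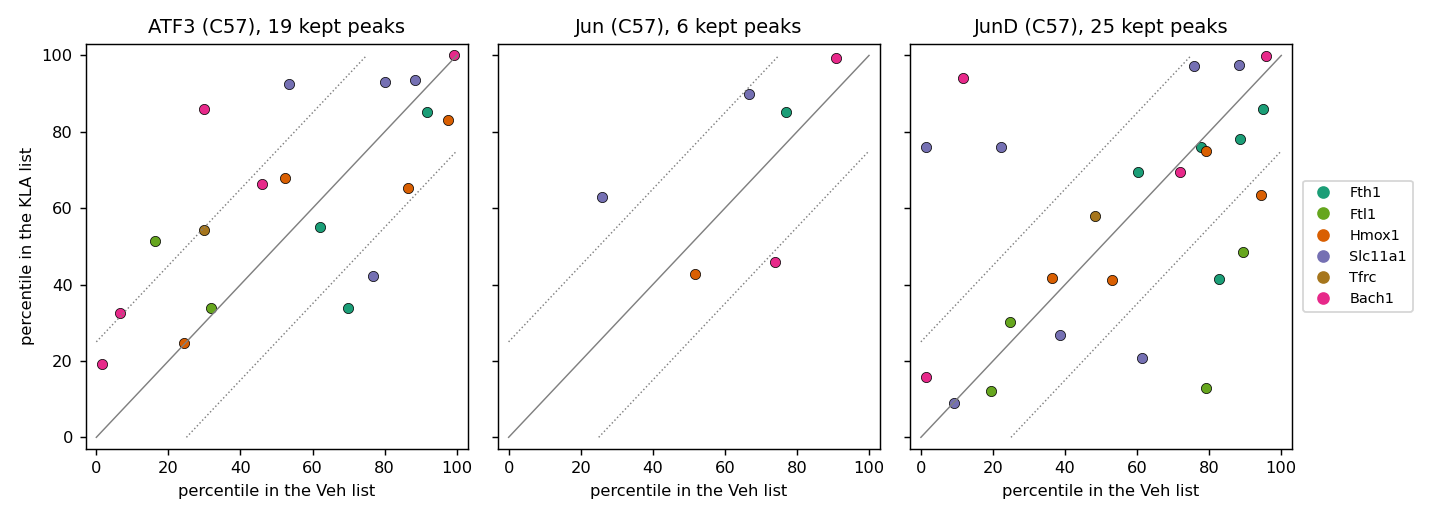
Percentile of each kept C57 peak in its Veh list (x axis) and of the strongest overlapping peak in the KLA list (y axis) for ATF3, Jun and JunD, coloured by gene; the solid line marks equality and the dotted lines 25 points. Points of Slc11a1 and Bach1 lie above the upper dotted line in the JunD panel, and points of Ftl1, Fth1, Hmox1 and Slc11a1 below the lower one.

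The comparison of strains asked whether the peaks of C57 were also called in BALB. With Veh, 13 of 23 ATF3 peaks were shared (56.5%, 36.8 to 74.4) against 63.0% of all ATF3 peaks, 6 of 12 Jun peaks (50.0%, 25.4 to 74.6) against 48.6%, and 22 of 31 JunD peaks (71.0%, 53.4 to 83.9) against 75.7%. With KLA, 23 of 32 ATF3 peaks (71.9%, 54.6 to 84.4) were shared against 76.5%, 6 of 15 Jun peaks (40%, 19.8 to 64.3) against 46.5%, 23 of 31 JunD peaks (74.2%, 56.8 to 86.3) against 74.0%, 18 of 19 Fos peaks (94.7%, 75.4 to 99.1) against 89.4% and 8 of 10 JunB peaks (80.0%, 49.0 to 94.3) against 79.2%. Each background share lay inside the interval of the members. The Jun lists of BALB were shorter, 10957 peaks against 15548 with Veh and 11317 against 17480 with KLA. At equal length 5 of 8 Jun peaks with Veh were shared (62.5%, 30.6 to 86.3) against 61.9%. With KLA it was 6 of 13 (46.2%, 23.2 to 70.9) against 59.3%. The Bach1 +26 kb locus held its place in BALB with KLA, at rank 5 for JunD, 6 for ATF3, 15 for Fos, 16 for Jun and 18 for JunB.

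Some strong C57 peaks overlapped no BALB peak of the same monomer and treatment. With Veh these were ATF3 at Slc11a1 -6.4 kb (count 100, percentile 80.1) and JunD at Fth1 +5.3 kb (97, 88.6, and 84, 82.7). With KLA they were Jun at Slc11a1 +6.4 kb (66, 93.3) and JunD at Fth1 -2.7 kb (497, 83.4) and Hmox1 -3.9 kb (421, 75). At Slc11a1 +6.4 kb the ATF3, JunD, Fos and JunB lists of BALB with KLA all had peaks, at percentiles of 94.7 to 98.8. At Fth1 +6.3 kb, the locus adjoining +5.3 kb, JunD with Veh was at percentile 96.8 in BALB and 60.3 in C57. That C57 peak at +6.3 kb overlapped a BALB peak, so JunD peaks were called in this stretch in both strains. With KLA both C57 JunD peaks at +5.3 kb (78.1 and 41.5) overlapped a BALB peak. Whether peak placement differs between the strains was not tested. Reads of BALB were mapped to a genome of that strain.

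The comparison with PPARgKO asked which AP-1 peaks with Veh were also called in cells labelled PPARgKO. Of the C57 peaks, 20 of 23 ATF3 peaks were shared (87.0%, 67.9 to 95.5) against 78.2% of all ATF3 peaks, 2 of 12 Jun peaks (16.7%, 4.70 to 44.8) against 21.8%, and 16 of 31 JunD peaks (51.6%, 34.8 to 68.0) against 53.5%. The Jun list of the knockout was shorter, 4290 peaks against 15548, and at equal length 2 of 3 Jun peaks were shared (66.7%, 20.8 to 93.9) against 52.7%. In the other direction 20 of 31 ATF3 peaks of the knockout were in C57 (64.5%, 46.9 to 78.9, against 63.9%), 2 of 3 Jun peaks (66.7%, 20.8 to 93.9, against 79.0%) and 15 of 23 JunD peaks (65.2%, 44.9 to 81.2, against 54.3%). Each background share lay inside its interval.

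The Jun peaks shared with the knockout were at Bach1 +26 kb (52 in C57, 27 in the knockout, percentile 83.9) and Fth1 -5.4 kb (38 and 15, 24.8), and the knockout had a Jun peak of its own at Fth1 -2.0 kb (22, 68.5). The Jun peaks at the Slc11a1 start, Hmox1 -9.7 kb and Bach1 +1.0 kb were not called in the knockout. JunD, at 88.2 at the Slc11a1 start in C57, had no peak there in the knockout, while ATF3 was at 88.4 and 87.4. The JunD peaks at Fth1 +5.3 kb (97, 88.6), Ftl1 +2.6 kb (78, 79.2) and Bach1 +1.0 kb (68, 71.8) overlapped none in the knockout, although another JunD peak was called there at the Fth1 and Ftl1 loci. At Hmox1 -3.9 kb, where PPARγ was at 98.9, ATF3 was at 97.6 in C57 and 95.1 in the knockout, and JunD at 79.2 and 86.2. At Hmox1 -9.7 kb ATF3 was at 86.6 and 84.4, and JunD at 94.5 and 94.8.

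**Figure D5:**
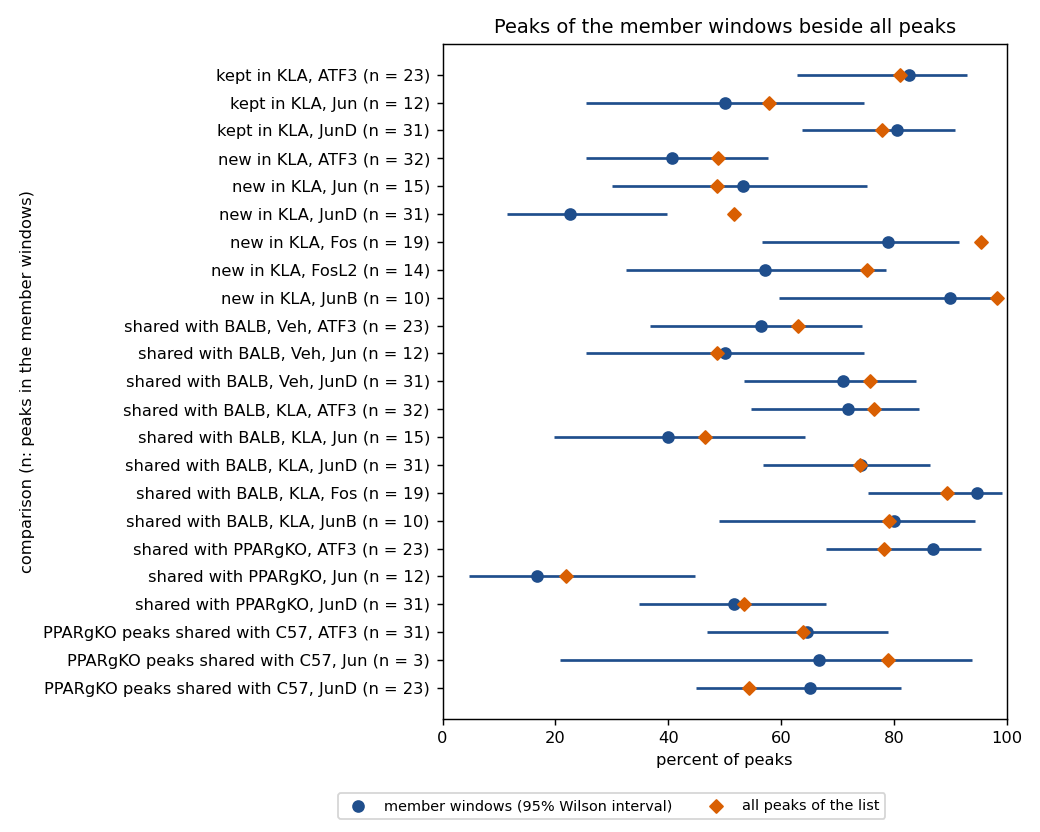
Percent of peaks kept, new or shared (x axis) in each of 23 comparisons (rows, with the number n of peaks in the 7 windows); blue points are the members with their 95% Wilson interval and orange diamonds all peaks of the list. At the main settings the diamond lies outside the interval for new JunD peaks (22.6% against 51.6%) and new Fos peaks (78.9% against 95.5%).

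Partner factors were counted at the AP-1 loci of these genes and at all AP-1 loci of C57, and each background share lay inside the interval of the members. With Veh 20 of 37 loci had a PU.1 peak (54.1%, 38.4 to 69.0, against 55.9%), 13 had a CEBPα peak (35.1%, 21.8 to 51.2, against 31.2%) and 23 a PPARγ peak (62.2%, 46.1 to 75.9, against 57.9%). With KLA 29 of 44 had a PU.1 peak (65.9%, 51.1 to 78.1, against 52.2%) and 15 a CEBPα peak (34.1%, 21.9 to 48.9, against 28.7%). These overlaps rest on joined loci that can be wider than a single peak. The PU.1 share with Veh was 35.1% with peak centres within 100 bp and 29.7% with a reciprocal overlap of 50%, settings at which the share over all loci was not computed. The genes differed among themselves. At Slc11a1 all 9 AP-1 loci with KLA had a PU.1 peak, and at Ftl1 2 of 5 did. PPARγ was at 5 of 6 Veh loci of Hmox1 and 3 of 8 of Fth1.

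Motif words were searched on both strands in the central 200 bp of the 48 loci that C57 AP-1 peaks formed when joined without the other lists. A TRE was in 15 (31.2%, 19.9 to 45.3), against 27.3% of all 49586 AP-1 loci with sequence and 5.20% of 32851 RefSeq promoter windows of GRCm38 (these are longer, 300 bp). An ARE was in 8 (16.7%, 8.70 to 29.6) against 13.8% and 12.4%, and a CRE (TGACGTCA, TGAGCTCA or TGACCTCA) in 3 (6.25%, 2.15 to 16.8) against 6.64% and 4.82%. The PU.1 word AGGAAGT was in 7 (14.6% against 18.7%), the C/EBP word TTGCNNAA in 5 (10.4% against 15.7%), the E-box CACGTG in 3 (6.25% against 5.03%), the NF-κB word GGGANNTTC in 1 (2.08% against 4.61%) and the PPAR half-site in 6 (12.5% against 15.8%). An ARE can contain a TRE, and the CRE word TGACCTCA contains the complement of AGGTCA, so these counts overlap. A word is a description of the sequence and not a shown binding site.

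A list of 36 other genes, of iron and heme handling and of the NRF2 and BACH1 pathway, was read in the same way. Of these, 32 had at least 1 C57 AP-1 locus in their window (88.9%, 74.7 to 95.6), against 64.2% of protein-coding genes, and their median density was at the 79.0th percentile. The list had 10 of 10 iron uptake and recycling genes, 5 of 7 iron sensing and export genes, 5 of 6 heme synthesis and breakdown genes and 12 of 13 NRF2, BACH1 partner and ARE target genes with a locus. The highest numbers were at Bach2, a relative of Bach1 (48 loci, percentile 92.2 per kb), Nfe2l2, which encodes NRF2 (17 loci, 99.2), and Slc39a14, an iron transporter (14 loci, 96.0). No AP-1 locus lay at Ireb2, an iron regulatory protein, Heph, an iron oxidase, Spic, a factor of heme-recycling macrophages, or Nqo1, a classical NRF2 target.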

How the data were processed

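ChIP-seq peak lists of TGEMs were analysed, 30 lists for 34 samples, since 4 input samples had no list. The authors aligned reads with Bowtie2 to mm10 or, for BALB, to a genome of that strain with positions moved back to mm10, used HOMER with an input control for peak calling, and retained peaks whose IDR (irreproducible discovery rate) between replicate experiments was under 0.05. The deposited count of a peak is a whole number, and how replicates entered it is not given in the sources used here. The deposited IDR score runs from 540 to 1000. Only counts were used, as ranks within a list, with the score as a filter in 1 alternative. Replicates were combined by the authors, so no test between conditions was made.

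Peaks were assigned to genes of GENCODE M21 by midpoint, joined into loci at 1 bp of overlap and compared in Python 3.11.15 (numpy 2.4.6, pandas 2.3.3, scipy 1.17.1), with functions tested on simulated data. The centre of a locus was the midpoint of its AP-1 peak of highest percentile. Distances were counted from the outermost annotated start of a gene, and starts of single transcripts were not used. All peak ends lay within the GRCm38 chromosomes. Named loci were those within 1 kb of a gene start, the 3 of highest percentile in each window, those in at least 8 of the 12 C57 AP-1 lists, and peaks in the upper 50% of their list that differed in a comparison. From the list of other genes the 3 with the most AP-1 loci and those with none were named. Members, gene list and rules were chosen with earlier results of these data known. The difference of 25 percentile points was chosen after seeing the data, and so were values given side by side at other loci.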

Additional observations from a re-analysis of the deposited data

Results flagged for a closer look

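At 6 of 20 combinations of a named locus and a monomer that had a single peak, all overlapping, with Veh and KLA in both strains, the percentile with KLA minus that with Veh had opposite signs in C57 and BALB. Each value is the difference between 2 lists and the difference between strains was not tested. ATF3 differed by -21.2 points in C57 and 13.8 in BALB at Hmox1 -9.7 kb, by -6.6 and 15.1 at Fth1 -5.4 kb, and by 20.4 and -5.1 at Bach1 +1.0 kb. Jun differed by 7.9 and -0.7 at Fth1 -5.4 kb. JunD differed by -8.9 and 0.2 at Fth1 -5.4 kb and by 5.5 and -10.9 at Hmox1 -0.1 kb. The BALB values of Jun and JunD at Fth1 -5.4 kb were close to 0. The Veh and KLA lists differ in length and the share of opposite signs over all loci was not computed, so the number of such loci is not read as a result.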

How the results depend on the processing

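Of 207 values recomputed under other settings, 179 stayed within the interval of the main value (counts, within 1.5 times) and 28 did not. Many of these intervals are wide, such as 25.4 to 74.6 for kept Jun peaks, so the tally does not show that the values are stable. Any overlap with the window took the same 604 peaks and could move no value. Since the settings change which peaks and how many enter, the cause of single differences was not tested. No share over all peaks is given for the strongest 50% of each list or for the PU.1 overlaps. With 5 kb on each side there were 378 peaks and 51 loci. Of Jun Veh peaks 80.0% were shared with BALB (5 peaks, 48.6% of all), and 100% of JunB KLA peaks were new (7 peaks, 98.2% of all). With 50 kb there were 1124 peaks and 136 loci. With the strongest 50% of each list there were 323 peaks and 50 loci, and 62.5% of JunD Veh peaks were kept. Of KLA peaks, 100% of ATF3 (14 peaks), Fos (10 peaks) and JunB (6 peaks) were shared with BALB. ATF3 Veh peaks were shared with PPARgKO at 100% (11 peaks). At that setting 34.8% (Veh) and 50.0% (KLA) of AP-1 loci had a PU.1 peak. With an IDR score of at least 830, 93.3% of ATF3 Veh peaks were kept (84.8% of all), and 100% of Fos KLA peaks were new (98.1% of all). JunB KLA peaks were shared with BALB at 100% (7 peaks, 88.3% of all) and ATF3 Veh peaks with PPARgKO at 100% (15 peaks, 83.9% of all). At this score 50.0% of KLA loci had a PU.1 peak. With lists of equal length, 60.9% of ATF3 (66.3% of all) and 58.1% of JunD Veh peaks (60.6% of all) were kept. At that length 6.67% of ATF3 KLA peaks (33.7% of all) and 100% of JunB KLA peaks (1 peak, 92% of all) were new. Jun Veh peaks were shared with PPARgKO at 66.7% (3 peaks, 52.7% of all). With peak centres within 100 bp, 35.1% (Veh) and 50.0% (KLA) of AP-1 loci had a PU.1 peak, and with a reciprocal overlap of 50%, 29.7% (Veh). Any overlap with the window, motifs in the central 100 bp and a difference of 15 percentile points moved no value out of its interval. The last of these, and equal lengths for the percentile differences, were chosen after seeing the data. No paired analysis was possible because the result comes from no test. Lists of few peaks (Fos and JunB with Veh) limit what can be called absent.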
